A study of Rattus norvegicus with 105 samples.

Results

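Primary rat hepatocytes exposed for 24 hours to 10 mM 1-nitropropane (1NP), the highest of the 8 concentrations tested, are described here against the controls of the same set. The libraries were chosen by their library names: the 3 wells of the second set given 1NP at the value 10, out of 105 libraries in 35 groups. They were set against 3 wells with medium alone (medium) and 3 wells with the vehicle dimethyl sulfoxide (DMSO), 9 libraries in all. 1NP at 0.003 mM in the same set served as a further comparison of 3 libraries. So did nitromethane (NM) and nitroethane (NE) at 10 mM in the first set, with 3 libraries each. Their comparison with 1NP was fitted on 21 libraries, which also held the medium and DMSO wells of both sets. The fit behind the p-values against medium and DMSO also held the remaining 1NP concentrations and the compound WY-14643, 33 libraries in 11 groups. Library names and sample titles give different doses for WY-14643 in this set. NE at 3 mM and benzo[a]pyrene, both in the first set, were used only in correlations between libraries. The cells came from female Sprague-Dawley rats, were of 1 commercial lot and were plated on collagen-coated 96-well plates in medium with serum and insulin. No genetic change is named in the labels, and the age of the animals is not given there. The labels speak of biological replicates but name 1 lot, so the p-values measure the spread between wells, which may be technical. Sample titles give the concentrations in µM and the treatment protocol gives the same values in mM, and mM is used here. DMSO is titled 0.5 and the protocol gives 0.2%, and whether the 1NP wells held DMSO is not stated.

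1-Nitropropane is a short-chain nitroalkane used as a solvent, and its carbon chain is longer than that of nitroethane by 1 carbon and than that of nitromethane by 2. Hepatocytes make most plasma proteins and carry out the synthesis of urea and glucose and the metabolism of foreign compounds. Stressed endoplasmic reticulum (ER) raises chaperones that fold secreted proteins, electrophiles act on the transcription factor NRF2, which raises conjugating and reducing enzymes, and isolated hepatocytes on stiff plastic lose their specialised functions while actin and matrix genes rise. TempO-Seq, the assay used, counts ligated pairs of detector oligos, 1 probe for a short stretch of an mRNA, so levels can be compared between libraries for the same probe but not between genes. Levels are given as CPM, the count of a probe scaled to the library total. A2m, Akr7a3, Gsta2, Gsta3, Kng1, Rpl38 and Tuba1a have close copies in the rat genome, and whether their probes read more than 1 copy is uncertain.

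The 9 libraries held 6893402 to 8942797 counts over 22253 probes, and a count of 3, the detection floor used, stood for 0.335 to 0.435 CPM. Hepatocyte markers were present, with 9 of 11 in the table and a summed level of 7721 to 8416.2 CPM in the 1NP libraries, 8453 to 11725 CPM in medium and 13137 to 14455 CPM in DMSO. The endothelial, lymphocyte and erythroid lists were at or near 0 in every library. Kupffer cell markers summed to 1.64 to 3.94 CPM in 1NP, 2.03 to 4.77 CPM in medium and 6.55 to 8.05 CPM in DMSO. The stellate list, with 7 of 8 markers in the table, summed to 258 to 359 CPM in 1NP, against 382 to 396 CPM in medium and 328 to 369.9 CPM in DMSO. Reln carried nearly all of that sum and Col1a2 a few CPM, while Des, Dcn, Pdgfrb and Col1a1 were at 0 and Col3a1 near it in every library. Of the cholangiocyte list Sox9, Epcam and Krt19 carried the sum of 243 to 757 CPM in 1NP, against 842 to 1001 CPM in medium and 610.5 to 739 CPM in DMSO, while Krt7 and Cftr were near 0. In such cultures fewer cells of a type and less RNA per cell cannot be told apart. By the wells in the library names 1NP at 10 mM lay in row H, columns 1 to 3, with medium in row A and DMSO in row B, columns 4 to 6. Well position and treatment cannot be told apart.

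Replicate 3 of 1NP at 10 mM stood apart from replicates 1 and 2. Among the 7559 probes with a mean of at least 10 CPM, 23.4% lay more than 1 log2 unit from the medium mean in replicate 3, against 0.926% in replicate 1 and 1.75% in replicate 2. The medium libraries themselves gave 0.781% to 3.85% and the DMSO libraries 3.86% to 5.17%. A chi-square of the counts per degree of freedom was 107 and 106 for replicate 3 with replicates 1 and 2, and 5.54 for replicates 1 and 2. The lowest value among the 9 pairs of replicates was 2.82, so no pair agreed within sampling noise. Values are given per library, in the order of replicates 1, 2 and 3 for 1NP and 4, 5 and 6 for the controls, and the comparisons with medium and DMSO are given over all probes with and without replicate 3.

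Nefm, Orm1, C3 and Ptgr1 were chosen as marker genes of the condition with earlier results of these data known, and their values describe it. Here and below, log2 fold changes are given ± SE. Nefm, the medium chain of the neurofilaments, measured 22.4, 22.9 and 63.7 CPM in the 1NP libraries, against 14, 14 and 11.2 CPM in medium and 3.7, 4.47 and 4.88 CPM in DMSO. All 3 1NP libraries lay above all 6 controls, with replicate 3 well above the other two. The log2 fold change was 1.57 ± 0.31 against medium (edgeR adjusted p = 0.00372) and 3.06 ± 0.35 against DMSO (adjusted p = 2.50e-06). Without replicate 3 it was 0.85 ± 0.25 against medium (edgeR adjusted p = 0.066) and 2.30 ± 0.27 against DMSO (adjusted p = 8.73e-07), so the call against medium ended and that against DMSO held. Medium was itself higher than DMSO for this gene, with no overlap between the 2 controls.

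Orm1, the acute-phase plasma protein alpha-1-acid glycoprotein, measured 465, 498 and 276 CPM in the 1NP libraries, against 819, 902 and 977 CPM in medium and 1517, 1271 and 1442 CPM in DMSO. It was lower in every 1NP library than in any control, and again lowest in replicate 3. Orm1 fell, with a log2 fold change of -1.08 ± 0.21 against medium (edgeR adjusted p = 0.00317) and -1.81 ± 0.21 against DMSO (adjusted p = 2.90e-06), and both calls held without replicate 3, at -0.86 ± 0.21 and -1.63 ± 0.22. C3, the central component of complement, measured 711, 641 and 173 CPM in the 1NP libraries, against 974.8, 1041 and 1162 CPM in medium and 1648, 1552 and 1735 CPM in DMSO. All 3 1NP libraries again lay below all 6 controls, with replicate 3 the lowest. C3 fell, at -1.03 ± 0.25 against medium (edgeR adjusted p = 0.0107) and -1.74 ± 0.26 against DMSO (adjusted p = 1.00e-04) in log2, and without replicate 3 at -0.60 ± 0.13 and -1.36 ± 0.13, still called. C3 (-1.06, edgeR adjusted p = 0.0586) lost its call against medium without medium replicate 5.

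Ptgr1, an NADPH-dependent reductase of alkenals and other electrophiles, behaved differently. It measured 86.9, 91.7 and 377 CPM in the 1NP libraries, against 104, 81.6 and 57.3 CPM in medium and 65.2, 64.6 and 53.8 CPM in DMSO. Replicates 1 and 2 lay within the range of medium and above DMSO, and replicate 3 stood alone above every other library. The fit with all 3 called it higher, at 1.30 ± 0.35 against medium (edgeR adjusted p = 0.0168) and 1.60 ± 0.35 against DMSO (adjusted p = 0.0121). Without replicate 3 neither call held, at 0.20 ± 0.16 against medium (edgeR adjusted p = 0.529) and 0.46 ± 0.16 against DMSO (adjusted p = 0.105). Ptgr1 (1.15 to 1.29, edgeR adjusted p of 0.051 to 0.0846) lost its call against medium without medium replicate 5 or 6. Ptgr1 (1.51 to 1.65, edgeR adjusted p of 0.0521 to 0.073) lost its call against DMSO without any 1 of the DMSO libraries. Of the 4 genes, Orm1 and C3 were called lower than both controls with and without replicate 3, Nefm was called higher than DMSO in both fits, and Ptgr1 was called only with replicate 3.

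**Figure D1:**
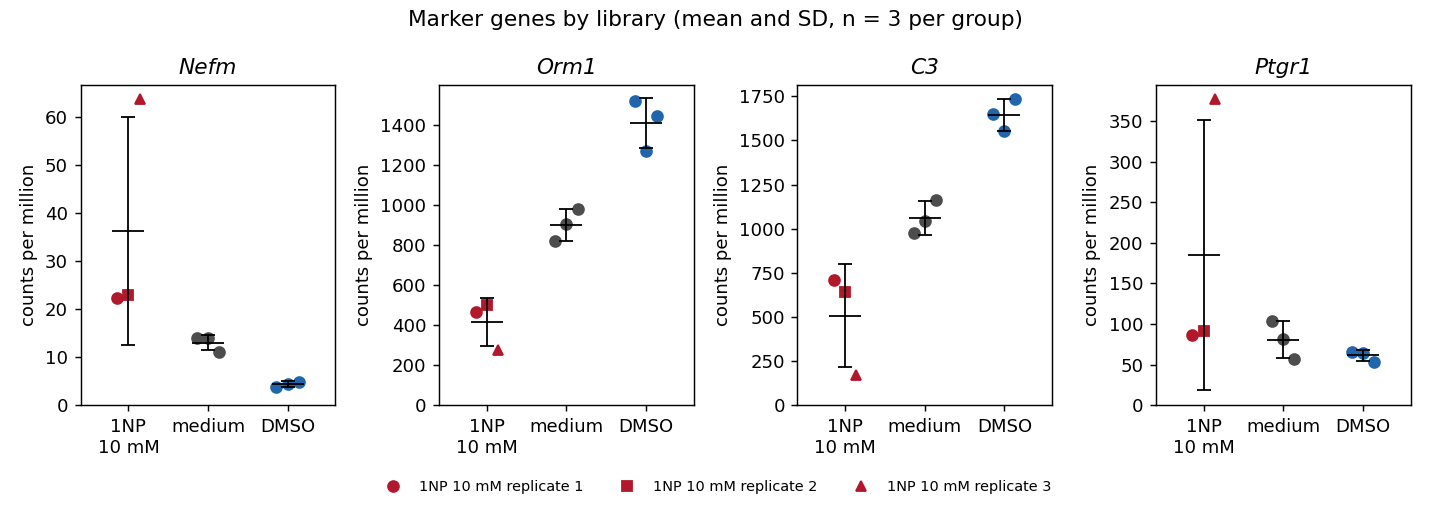
Levels of Nefm, Orm1, C3 and Ptgr1 in CPM (vertical axes, from 0) in the 3 libraries of 1NP 10 mM (red, a symbol per replicate), medium (grey) and DMSO (blue), with mean and SD (n = 3 per group). Orm1 and C3 lie below all 6 controls in each 1NP library, Nefm lies above them, and Ptgr1 is high in replicate 3 alone.

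Across all probes the first comparison asked what 10 mM 1NP changed relative to untreated wells. Against medium, 1096 of 12189 probes tested were higher with 1NP (8.99%) and 805 lower (6.6%), at an adjusted p under 0.05 in edgeR's quasi-likelihood test with Benjamini-Hochberg adjustment. Without replicate 3 the counts were 217 higher (1.75% of 12374) and 76 lower (0.614%). Against DMSO, 140 were higher (1.15%) and 121 lower (0.993%) with all 3 libraries, and 261 higher (2.11%) and 283 lower (2.29%) without replicate 3. Called in the same direction against both controls were 47 higher (0.386%) and 33 lower (0.271%), and without replicate 3 22 higher (0.178%) and 15 lower (0.121%). The comparisons share the 1NP libraries, so a call against both is no second test. With 1 library left out, the count against medium ran between 90 (without medium replicate 5) and 2764 (without 1NP replicate 1). That against DMSO ran between 119 (without DMSO replicate 4) and 544 (without 1NP replicate 3), and that against both between 20 (without medium replicate 5) and 246 (without 1NP replicate 1). A fit of only the 9 libraries called 0 against medium in edgeR, with 2425 at an unadjusted p under 0.05 and 2321 in DESeq2's Wald test of all 33 libraries.

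A core of 20 probes for 19 genes was called in the same direction against both controls with and without replicate 3, 8 higher and 12 lower. Of these, 19 lay beyond all 6 controls in all 3 1NP libraries, the exception being Ergic1. Over all probes tested 264 lay above all 6 controls (2.17%) and 235 below (1.93%). The core was picked by its calls, so its direction is a description and not a further result. With any 1 of the 9 libraries left out, 5 of the 20 probes kept both calls, those of Dusp1, Aass, Uox and Orm1 and the weaker probe of Wfdc2. In the fit of the 9 libraries alone no probe was called against medium, and Gadd45g, Uox and Orm1 were the 3 core probes called against DMSO. Wells at 0.003 mM lay in the same columns as those at 10 mM, though in row A, and against them 1235 probes were higher at 10 mM (10.1%) and 661 lower (5.42%). Without 1NP replicate 3 at 10 mM there were 122 higher (0.986%) and 51 lower (0.412%). The 1896 calls became 299 without 0.003 mM replicate 1 and 709 without its replicate 2. Of the core, 16 probes were called in the same direction against 0.003 mM, and 10 without replicate 3. The core was picked by the same wells at 10 mM, so these calls are no second test.

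Among the lower genes of the core, Apoe, an apolipoprotein of lipid transport, measured 4324, 3669 and 1783 CPM in the 1NP libraries, against 5166, 5905 and 5984 CPM in medium and 6435, 6021 and 6432 CPM in DMSO. The 1NP libraries were the 3 lowest of the 9, and the log2 fold change was -0.76 ± 0.17 against medium (edgeR adjusted p = 0.00656) and -0.99 ± 0.17 against DMSO (adjusted p = 4.96e-04). Without replicate 3, the lowest, it was -0.46 ± 0.12 against medium (edgeR adjusted p = 0.0405) and -0.73 ± 0.13 against DMSO (adjusted p = 2.04e-04). A2m encodes alpha-2-macroglobulin, a protease inhibitor that is a major acute-phase protein in the rat, and has 2 probes. The first measured 316, 354 and 48.2 CPM in the 1NP libraries, against 518, 508 and 519.6 CPM in medium and 1203, 1095 and 1095 CPM in DMSO, and it fell with and without replicate 3, with the call against medium close to the threshold (adjusted p = 0.0426 and, without replicate 3, 0.0466, edgeR). The second measured 1451, 1695 and 241 CPM in the 1NP libraries, against 1937, 1349 and 1688 CPM in medium and 5769, 6038 and 5717 CPM in DMSO, so replicates 1 and 2 lay within the range of medium, replicate 3 lay below it, and only the difference from DMSO was called (-2.42 ± 0.39, edgeR adjusted p = 5.50e-04). Apoe (-0.75, edgeR adjusted p = 0.053) lost its call against medium without medium replicate 5. the first A2m probe (-1.10 to -1.01, edgeR adjusted p of 0.0618 to 0.119) lost its call against medium without any 1 of the medium libraries.

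Uox, the peroxisomal urate oxidase that degrades uric acid in rodents, measured 319.7, 332 and 137 CPM in the 1NP libraries, against 519, 578 and 635 CPM in medium and 845, 815 and 855 CPM in DMSO. Every 1NP library was below every control, and the change was -1.10 ± 0.19 against medium (edgeR adjusted p = 0.00168) and -1.72 ± 0.19 against DMSO (adjusted p = 2.09e-06). Without replicate 3 it was -0.78 ± 0.14 and -1.44 ± 0.15. Wfdc2, a secreted protein with whey acidic protein domains, was read by 2 probes that fell together. The stronger probe measured 134, 118 and 64.2 CPM in the 1NP libraries, against 178, 223 and 218 CPM in medium and 171, 163 and 182 CPM in DMSO, and the weaker 41.2, 34.9 and 18.5 CPM in the 1NP libraries, against 70.6, 78.6 and 48.3 CPM in medium and 73.5, 63.7 and 72.8 CPM in DMSO. Their changes against medium were -0.92 ± 0.17 and -1.01 ± 0.17, both below all controls, and without replicate 3 -0.67 ± 0.15 and -0.74 ± 0.16. the stronger Wfdc2 probe (-0.75 to -0.71, edgeR adjusted p of 0.0554 to 0.0689) lost its call against DMSO without DMSO replicate 4 or 6.

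Cyp1a2, a cytochrome P450 raised by the aryl hydrocarbon receptor, was low throughout, at 3.64, 2.58 and 3.98 CPM in the 1NP libraries, against 7.0, 7.84 and 12.2 CPM in medium and 7.17, 7.16 and 9.38 CPM in DMSO. It fell with 1NP, at -1.34 ± 0.30 against medium (edgeR adjusted p = 0.00704) and -1.23 ± 0.30 against DMSO (adjusted p = 0.023). Without replicate 3 it was -1.48 ± 0.35 against medium (edgeR adjusted p = 0.0204) and -1.42 ± 0.35 against DMSO (adjusted p = 0.0132). Lrp11, a member of the low-density lipoprotein receptor family, measured 73.3, 74.2 and 76.9 CPM in the 1NP libraries, against 102, 114 and 97.9 CPM in medium and 118, 113 and 128 CPM in DMSO. Replicate 3 lay close to the other two here, and the change was -0.42 ± 0.11 against medium and -0.71 ± 0.11 against DMSO. Clec2g, a C-type lectin, was alike in this, with 104, 103 and 116 CPM in the 1NP libraries, against 154, 172 and 169 CPM in medium and 164, 172 and 160.1 CPM in DMSO. Peg3, an imprinted zinc finger gene, measured 4.45, 3.39 and 8.32 CPM in the 1NP libraries, against 8.58, 13 and 11.8 CPM in medium and 11.8, 16.3 and 15.3 CPM in DMSO, and here replicate 3 was the nearest of the 3 to the controls. Tff1, a trefoil peptide of mucous epithelia, stood at 1.35, 0.814 and 1.05 CPM in 1NP, few counts above the floor, against 6.55, 4.09 and 2.76 CPM in medium and 3.23, 2.91 and 5.52 CPM in DMSO. Cyp1a2 (-1.29 to -1.07, edgeR adjusted p of 0.0549 to 0.123) and Tff1 (-1.98 to -1.53, adjusted p of 0.0624 to 0.186) lost their calls against DMSO without 1NP replicate 2 or DMSO replicate 4 or 6. Lrp11 (-0.37, edgeR adjusted p = 0.0843), Clec2g (-0.54, adjusted p = 0.0586) and Tff1 (-2.05, adjusted p = 0.0535) lost their calls against medium without medium replicate 5. Peg3 (-0.86 to -0.71, edgeR adjusted p of 0.0979 to 0.168) lost its call against medium without 1NP replicate 1 or 2 or medium replicate 5 or 6. Peg3 (-1.33 to -1.19, edgeR adjusted p of 0.0565 to 0.0649) lost its call against DMSO without 1NP replicate 2 or DMSO replicate 5.

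Among the higher genes of the core, Gadd45g, a growth arrest and DNA damage inducible protein, measured 18.5, 21.7 and 18.6 CPM in the 1NP libraries, against 8.7, 7.73 and 10.6 CPM in medium and 7.53, 7.16 and 6.04 CPM in DMSO. The 3 1NP libraries were close together and lay above all controls, with a log2 fold change of 1.18 ± 0.24 against medium (edgeR adjusted p = 0.00357) and 1.47 ± 0.24 against DMSO (adjusted p = 2.69e-04), and of 1.21 ± 0.26 and 1.46 ± 0.26 without replicate 3. Dusp1, a phosphatase that switches off MAP kinases, measured 252, 252 and 366 CPM in the 1NP libraries, against 208, 211 and 153 CPM in medium and 157, 171 and 165 CPM in DMSO. It rose by 0.68 ± 0.12 against medium (edgeR adjusted p = 0.00222) and 0.80 ± 0.12 against DMSO (adjusted p = 1.34e-04) in log2. Without replicate 3, which was the highest, the values were 0.46 ± 0.11 and 0.54 ± 0.11. Aass, the enzyme that opens lysine breakdown, measured 43.5, 60.5 and 73.8 CPM in the 1NP libraries, against 28.2, 25.6 and 32.3 CPM in medium and 23.4, 31.2 and 26.2 CPM in DMSO, and rose by 1.11 ± 0.21 against medium (edgeR adjusted p = 0.00227) and 1.12 ± 0.21 against DMSO (adjusted p = 0.0013). Gadd45g (1.06, edgeR adjusted p = 0.0535) lost its call against medium without medium replicate 5.

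Wdr83os, a component of the machinery that inserts membrane proteins into the ER, measured 26.3, 36 and 29.3 CPM in the 1NP libraries, against 16.9, 12.5 and 14.9 CPM in medium and 14.7, 14.3 and 20.4 CPM in DMSO. Its change was 1.11 ± 0.20 against medium (edgeR adjusted p = 0.00227) and 0.86 ± 0.20 against DMSO (adjusted p = 0.0152), with no overlap of 1NP with the controls. Tm2d2, a membrane protein, measured 144, 172 and 139.7 CPM in the 1NP libraries, against 97.6, 97.4 and 84.6 CPM in medium and 97, 114 and 108 CPM in DMSO, with changes of 0.77 ± 0.13 and 0.48 ± 0.13. Ergic1, a protein of the compartment between ER and Golgi, measured 163, 157 and 146 CPM in the 1NP libraries, against 149, 119 and 111 CPM in medium and 107, 115 and 116 CPM in DMSO, so that 1NP and medium overlapped. Cldn23, a claudin of tight junctions, measured 14.8, 15.5 and 13 CPM in the 1NP libraries, against 9.15, 8.07 and 7.83 CPM in medium and 8.36, 8.61 and 6.55 CPM in DMSO. AABR07036375.1, a predicted gene, measured 29.1, 37.7 and 39.4 CPM in the 1NP libraries, against 16.9, 11.6 and 16.4 CPM in medium and 14.1, 14.6 and 25.7 CPM in DMSO. In these 5 genes replicate 3 lay within or near the range of the other two. Wdr83os (0.73 to 0.79, edgeR adjusted p of 0.062 to 0.116) lost its call against DMSO without 1NP replicate 2 or DMSO replicate 4 or 5. Tm2d2 (0.39 to 0.54, edgeR adjusted p of 0.0747 to 0.211) lost its call against DMSO without 1NP replicate 2 or any 1 of the DMSO libraries. Ergic1 (0.31, edgeR adjusted p = 0.115) and Cldn23 (0.81, adjusted p = 0.0843) lost their calls against medium without medium replicate 5. Ergic1 (0.40 to 0.45, edgeR adjusted p of 0.0534 to 0.102) and AABR07036375.1 (0.80 to 0.81, adjusted p of 0.143 to 0.149) lost their calls against DMSO without DMSO replicate 4 or 5. Cldn23 (0.73 to 0.92, edgeR adjusted p of 0.0578 to 0.204) lost its call against DMSO without 1NP replicate 1 or 2 or any 1 of the DMSO libraries.

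Ranked by the smaller of the 2 log2 fold changes in the fit with all 3 libraries, the leading genes called higher against both controls were mostly those in which replicate 3 lay farthest from the controls. LOC103694875, an uncharacterised locus, measured 10.1, 28.2 and 220.3 CPM in the 1NP libraries, against 1.13, 1.14 and 2.32 CPM in medium and 5.5, 3.35 and 5.14 CPM in DMSO. All 3 1NP libraries lay above all controls but spread widely, and the change was 5.96 ± 1.10 against medium (edgeR adjusted p = 0.00333) and 4.23 ± 0.96 against DMSO (adjusted p = 0.0172). Without replicate 3 it was 3.73 ± 0.91 against medium (edgeR adjusted p = 0.0332) and 1.97 ± 0.80 against DMSO (adjusted p = 0.204). Calml4, a calmodulin-like protein, measured 51.7, 58.4 and 132 CPM in the 1NP libraries, against 35.6, 25.7 and 46 CPM in medium and 23.9, 22.4 and 30.1 CPM in DMSO, and Serpinf1, the secreted serpin PEDF, measured 411, 485 and 984 CPM in the 1NP libraries, against 341, 264 and 257 CPM in medium and 332, 291 and 359 CPM in DMSO. In both replicate 3 was higher than replicates 1 and 2, which themselves exceeded all 6 controls. Their changes were 1.25 ± 0.29 and 1.21 ± 0.23 against medium, with 0.67 ± 0.24 (edgeR adjusted p = 0.12) and 0.69 ± 0.17 (adjusted p = 0.0298) without replicate 3. Dhrs9, a short-chain dehydrogenase, Nupr1l1, a relative of the stress protein NUPR1, and Crip2, a LIM domain protein, had the same order. They changed by 1.32 ± 0.25, 0.84 ± 0.19 and 0.77 ± 0.17 against medium, and without replicate 3 Dhrs9 alone was called against medium (1.03 ± 0.26, edgeR adjusted p = 0.0286). Against DMSO without replicate 3, Calml4 and Crip2 were called, while Serpinf1, Dhrs9 and Nupr1l1 were not (edgeR adjusted p = 0.282, 0.0745 and 0.169). LOC103694875 (4.04 to 4.37, edgeR adjusted p of 0.0805 to 0.11) and Serpinf1 (0.85 to 0.99, adjusted p of 0.0689 to 0.151) lost their calls against DMSO without any 1 of the DMSO libraries. Calml4 (1.04, edgeR adjusted p = 0.0794), Nupr1l1 (0.83, adjusted p = 0.0535) and Crip2 (0.77, adjusted p = 0.0535) lost their calls against medium without medium replicate 5. Dhrs9 (1.06 to 1.10, edgeR adjusted p of 0.0624 to 0.0734) lost its call against DMSO without DMSO replicate 4 or 5. Nupr1l1 (0.70 to 0.81, edgeR adjusted p of 0.0643 to 0.131) lost its call against DMSO without DMSO replicate 5 or 6.

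On the lower side the leading genes outside the core were Bace2, an aspartyl protease, Anxa8, an annexin that binds membranes, Plagl1, an imprinted zinc finger factor, and Dopey2, a protein of membrane traffic. Plagl1 measured 10.3, 11.7 and 1.64 CPM in the 1NP libraries, against 18.2, 15.9 and 16 CPM in medium and 32.4, 36.3 and 29.2 CPM in DMSO. Bace2 measured 13.1, 13.2 and 2.34 CPM in the 1NP libraries, against 20.1, 23.3 and 25.4 CPM in medium and 29, 26.9 and 37.9 CPM in DMSO. In both all 1NP libraries lay below all controls, with replicate 3 lowest by far. The changes against DMSO were -2.11 ± 0.33 for Plagl1 and -1.77 ± 0.34 for Bace2, called with and without replicate 3. Against medium they were -1.05 ± 0.33 and -1.24 ± 0.34, and neither was called without replicate 3 (edgeR adjusted p = 0.199 and 0.106). Anxa8 and Dopey2 changed by -1.12 ± 0.31 and -0.78 ± 0.21 against medium, also not called there without replicate 3 (edgeR adjusted p = 0.147 and 0.115). Bace2 (-1.25, edgeR adjusted p = 0.0804), Anxa8 (-1.18, adjusted p = 0.0671) and Dopey2 (-0.75, adjusted p = 0.0804) lost their calls against medium without medium replicate 5. Plagl1 (-1.10 to -1.02, edgeR adjusted p of 0.0552 to 0.0943) lost its call against medium without any 1 of the medium libraries. Dopey2 (-0.84 to -0.75, edgeR adjusted p of 0.073 to 0.146) lost its call against DMSO without 1NP replicate 1 or any 1 of the DMSO libraries.

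Other genes were called against 1 control only. Of those higher than medium, Tsku, a secreted leucine-rich protein, measured 43.2, 40.4 and 686 CPM in the 1NP libraries, against 39.3, 28.8 and 30.5 CPM in medium and 45.2, 46.6 and 46.3 CPM in DMSO. Hsd17b13, an enzyme of lipid droplets, measured 45.3, 43.7 and 588 CPM in the 1NP libraries, against 28.7, 17.8 and 41.8 CPM in medium and 95.5, 82 and 98.2 CPM in DMSO. Replicate 3 alone was above DMSO in both, and without it neither was called against medium (edgeR adjusted p = 0.596 and 0.469). Plbd1, a phospholipase B-like protein, and 1 of 2 probes of Ero1b, an ER oxidoreductase, were alike, at 2.80 ± 0.66 and 2.75 ± 0.59 against medium with all 3 and 1.11 ± 0.52 and 1.09 ± 0.41, not called, without replicate 3. Of those lower than medium, Mroh2a, a HEAT repeat protein, measured 17.9, 11.7 and 11.2 CPM in the 1NP libraries, against 43.6, 39 and 30.03 CPM in medium and 7.17, 11.4 and 12.3 CPM in DMSO. Bcl2l1, which encodes the anti-apoptotic BCL-XL, measured 152, 78.4 and 74.2 CPM in the 1NP libraries, against 294, 312 and 243 CPM in medium and 39.7, 75.8 and 41.1 CPM in DMSO, and Plec, the cytoskeletal linker plectin, measured 7.96, 9.36 and 5.39 CPM in the 1NP libraries, against 28.2, 34.9 and 14.2 CPM in medium and 5.74, 6.37 and 6.04 CPM in DMSO on 1 of its 2 probes. In these 3 medium stood apart above 1NP and DMSO, which overlapped. Mroh2a was called against medium with and without replicate 3, at -1.40 ± 0.28 and -1.29 ± 0.30, and so was Plekhs1, a pleckstrin homology protein, at -1.66 ± 0.38 and -1.10 ± 0.27. Bcl2l1 and Plec were not called without it (edgeR adjusted p = 0.21 and 0.105). Tsku (2.98, edgeR adjusted p = 0.0727), Hsd17b13 (2.76, adjusted p = 0.0807), Plbd1 (2.51, adjusted p = 0.0799), Ero1b (2.61, adjusted p = 0.0598), Plec (-1.43, adjusted p = 0.0904) and Plekhs1 (-1.64, adjusted p = 0.0535) lost their calls against medium without medium replicate 5. Bcl2l1 (-1.47 to -1.27, edgeR adjusted p of 0.0517 to 0.128) lost its call against medium without 1NP replicate 2 or any 1 of the medium libraries.

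Against DMSO the largest rises outside these were Inhba, a subunit of activin A, Lgals4, a galectin, and G0s2, an inhibitor of triglyceride lipase. Inhba measured 52.1, 62.2 and 8.91 CPM in the 1NP libraries, against 38.7, 37.5 and 35.1 CPM in medium and 8.24, 8.16 and 7.58 CPM in DMSO. Lgals4 measured 66.3, 52.4 and 31.4 CPM in the 1NP libraries, against 36.4, 33.1 and 43.2 CPM in medium and 11.7, 9.39 and 8.87 CPM in DMSO. Both were higher in 1NP and medium than in DMSO, with replicate 3 the lowest of the 1NP wells. Their changes against DMSO were 2.30 ± 0.40 and 2.28 ± 0.29 with all 3, and 2.76 ± 0.25 and 2.49 ± 0.29 without replicate 3, and neither was called against medium. G0s2 measured 16.1, 13.3 and 85.1 CPM in the 1NP libraries, against 23.5, 28.1 and 23.5 CPM in medium and 8.48, 8.16 and 7.32 CPM in DMSO, and its call against DMSO ended without replicate 3 (edgeR adjusted p = 0.0609). Plg, plasminogen, was lower than DMSO in both fits, at 5.13, 6.38 and 11.5 CPM in the 1NP libraries, against 8.13, 7.27 and 7.11 CPM in medium and 37.3, 22.7 and 45.1 CPM in DMSO, and overlapped with medium.

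In the concentration series 8 of the 20 core probes set all 3 wells at 10 mM apart from all 21 libraries of the 7 lower concentrations. Orm1 ran from 559 to 1444 CPM at the lower concentrations, above all 3 wells at 10 mM. Uox ran from 397 to 697 CPM there, C3 from 817 to 1244 CPM and Dusp1 from 172 to 234 CPM, none overlapping with 10 mM. Lrp11, AABR07036375.1 and both Wfdc2 probes were likewise separate. The others overlapped with 1 to 15 of the 21 libraries, most of all Peg3. Over all probes 264 lay above all 6 controls in each 10 mM library and 235 below. Of these, 24 also lay above all 21 lower-concentration libraries (0.197% of all probes), and 24 below them (0.197%). The core was picked by the same wells at 10 mM, so its 8 of 20 is a description. Concentration and plate row cannot be told apart.

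Of these 48 probes 32 had a mean of at least 10 CPM and 18 were called against both controls. Among those that fell were the apolipoproteins Apoc3 and Apoa1 and the plasma protein precursor Ambp. Apoc3, a regulator of triglyceride clearance, measured 24.6, 22 and 21.3 CPM in the 1NP libraries, against 40.4, 44.2 and 27.4 CPM in medium and 68.3, 47.1 and 75.5 CPM in DMSO, a change of -0.65 ± 0.21 and -1.52 ± 0.21. Ambp, precursor of alpha-1-microglobulin and bikunin, measured 95.4, 90.8 and 91.3 CPM in the 1NP libraries, against 146, 150.1 and 117 CPM in medium and 222, 162 and 228 CPM in DMSO. Apoa1, the main protein of high-density lipoprotein, measured 2074, 1904 and 1618 CPM in the 1NP libraries, against 2322, 2198 and 3143 CPM in medium and 4366, 3827 and 4331 CPM in DMSO. In each the 1NP replicates lay close together and below all controls, and all 3 were called against both, but without replicate 3 none was called against medium (edgeR adjusted p = 0.137, 0.102 and 0.223). Egr2, an immediate early transcription factor, measured 1.89, 1.63 and 0.234 CPM in the 1NP libraries, against 3.28, 5.0 and 2.9 CPM in medium and 5.38, 4.92 and 7.2 CPM in DMSO, called lower than both with all 3 replicates and, without replicate 3, not against medium (edgeR adjusted p = 0.20). Rpl38, a ribosomal protein gene, rose against medium, at 1009, 1168 and 1146 CPM in the 1NP libraries, against 439.7, 292 and 670.5 CPM in medium and 748, 673 and 715 CPM in DMSO, a change of 1.29 ± 0.22 (edgeR adjusted p = 0.00168) that held without replicate 3. Rpl38 and Hcfc1, a transcriptional coregulator with 19.4, 18.2 and 20.6 CPM in the 1NP libraries, against 8.7, 6.02 and 8.41 CPM in medium and 17.6, 17.3 and 16.6 CPM in DMSO, were chosen after their values were seen. Apoc3 (-0.63 to -0.53, edgeR adjusted p of 0.0603 to 0.173) and Ambp (-0.50 to -0.46, adjusted p of 0.055 to 0.134) lost their calls against medium without 1NP replicate 2 or medium replicate 4 or 5. Apoa1 (-0.53 to -0.17, edgeR adjusted p of 0.0604 to 0.379) lost its call against medium without 1NP replicate 2 or medium replicate 5 or 6. Egr2 (-1.29, edgeR adjusted p = 0.141) lost its call against medium without medium replicate 5.

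**Figure D2:**
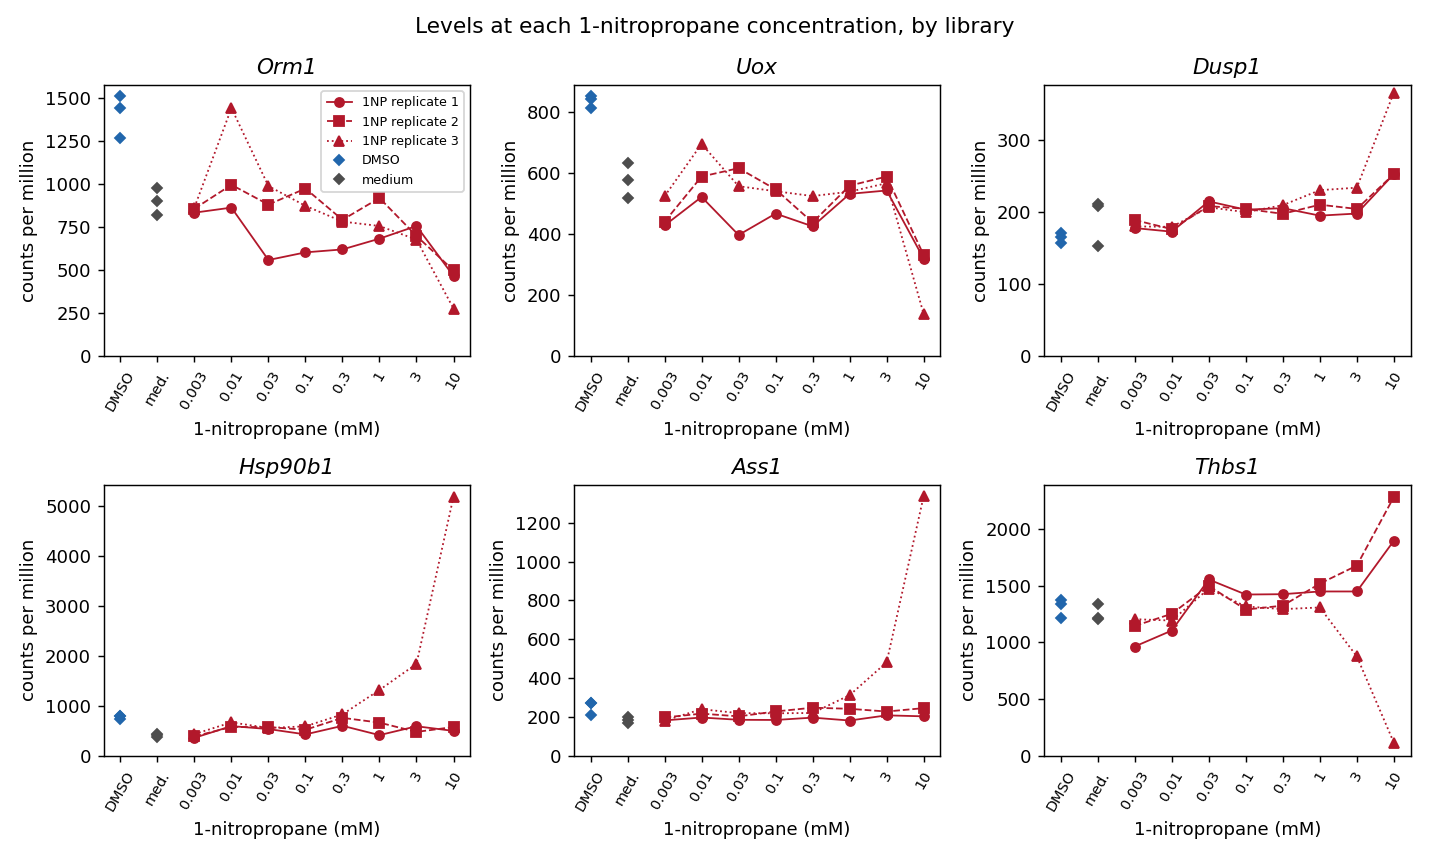
Levels in CPM (vertical axes, from 0) of Orm1, Uox, Dusp1, Hsp90b1, Ass1 and Thbs1 in DMSO and medium at the left and at the 8 concentrations of 1NP in mM, equally spaced in order, with a line and symbol for each replicate. Orm1, Uox and Dusp1 set all 3 wells at 10 mM apart from lower concentrations, while Hsp90b1 and Ass1 are highest and Thbs1 lowest in replicate 3 at 10 mM.

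In the list of ER chaperones and unfolded protein response, 12 of 17 probes were higher than medium and none lower, with a median log2 fold change of 1.26, beside 0.00 over all probes tested. None was called against DMSO, at a median of 0.75 beside 0.04 over all. Over all probes 8.99% were higher and 6.6% lower than medium, and 1.15% higher and 0.993% lower than DMSO. Without replicate 3 none of the list was called against medium, at a median of 0.16, and 1 was lower than DMSO. The shares over all probes in that fit were 1.75% higher and 0.614% lower than medium, and 2.29% lower than DMSO. The median of the list was 0.01, 0.22 and 2.20 log2 units above medium in 1NP replicates 1, 2 and 3. Replicates 1 and 2 lay near medium, and replicate 3 far above it. Without medium replicate 4 or 6 the count against medium was 8 or 6, and without medium replicate 5 it was 0, while it was 14 without 1NP replicate 1 or 2. Over all probes, in either direction, 1813 of 12391, 90 of 12371 and 1924 of 12410 were called without medium replicates 4, 5 and 6. The totals were 2764 of 12406 and 2344 of 12402 without 1NP replicates 1 and 2. These totals also apply to the lists below.

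Hsp90b1, the ER chaperone GRP94, measured 496, 574 and 5191 CPM in the 1NP libraries, against 441, 422 and 383 CPM in medium and 790.4, 741 and 788 CPM in DMSO. Replicate 3 was far above all other libraries, and replicates 1 and 2 lay between medium and DMSO. The fit gave 2.44 ± 0.63 against medium (edgeR adjusted p = 0.0149) and 1.45 ± 0.61 against DMSO (adjusted p = 0.265) with all 3 libraries and 0.42 ± 0.41 against medium (edgeR adjusted p = 0.621) and -0.61 ± 0.41 against DMSO (adjusted p = 0.52) without replicate 3. Hspa5, the chaperone BiP that senses unfolded proteins, measured 10.7, 10.7 and 176 CPM in the 1NP libraries, against 13.4, 11.3 and 4.5 CPM in medium and 22.5, 25.8 and 27.1 CPM in DMSO. Calr, the lectin chaperone calreticulin, measured 289.6, 341 and 1675 CPM in the 1NP libraries, against 330.5, 257 and 295 CPM in medium and 573, 553 and 556 CPM in DMSO. Hyou1, a nucleotide exchange factor of BiP, measured 120.1, 159 and 1162 CPM in the 1NP libraries, against 139, 146 and 153 CPM in medium and 204, 187 and 193 CPM in DMSO. In these 3 too replicate 3 alone exceeded all 6 controls. The log2 fold change of Hyou1 was 1.82 ± 0.60 against medium (edgeR adjusted p = 0.0413) and 1.32 ± 0.59 against DMSO (adjusted p = 0.297) with all 3, and -0.02 ± 0.42 against medium (edgeR adjusted p = 0.99) and -0.56 ± 0.43 against DMSO (adjusted p = 0.578) without replicate 3. Hsp90b1 (2.43, edgeR adjusted p = 0.0843) lost its call against medium without medium replicate 5. Hspa5 (2.59 to 2.98, edgeR adjusted p of 0.0764 to 0.11) lost its call against medium without medium replicate 5 or 6. Calr (1.38 to 1.54, edgeR adjusted p of 0.0735 to 0.167) and Hyou1 (1.75 to 1.91, adjusted p of 0.069 to 0.147) lost their calls against medium without any 1 of the medium libraries. Hsp90b1 was also highest in replicate 3 at lower concentrations, with 1317, 1840.5 and 5191 CPM at 1, 3 and 10 mM. Replicates 1 to 3 together measured 412, 662 and 1317 CPM at 1 mM and 589, 476 and 1840.5 CPM at 3 mM.

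Of the 4 chaperones, Hspa5, Hsp90b1 and Calr have promoters that hold the ER stress element, and these are shown with it, CCAAT and CCACG with any 9 bases between them, in capitals. It was searched on both strands from 250 bases before to 50 after the RefSeq start, assembly GRCr8, and printed 5′ to 3′ on the gene's strand. Hspa5 lies at chr3:38452766-38453065, plus strand, Hsp90b1 at chr7:23012244-23012543, minus strand with 2 matches, and Calr at chr19:40213117-40213416, plus strand.
Hspa5: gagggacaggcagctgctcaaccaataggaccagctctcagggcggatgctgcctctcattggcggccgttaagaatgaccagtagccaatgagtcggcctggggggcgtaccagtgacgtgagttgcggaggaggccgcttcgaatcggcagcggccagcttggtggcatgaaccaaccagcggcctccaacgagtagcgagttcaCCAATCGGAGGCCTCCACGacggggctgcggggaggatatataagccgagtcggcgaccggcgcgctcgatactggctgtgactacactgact
Hsp90b1: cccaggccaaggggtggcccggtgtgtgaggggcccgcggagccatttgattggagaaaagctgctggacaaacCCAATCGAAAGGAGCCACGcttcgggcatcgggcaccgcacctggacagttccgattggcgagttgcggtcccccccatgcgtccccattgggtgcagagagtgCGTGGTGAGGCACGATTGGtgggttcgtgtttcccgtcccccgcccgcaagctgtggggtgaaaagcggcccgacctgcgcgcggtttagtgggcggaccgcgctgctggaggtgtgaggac
Calr: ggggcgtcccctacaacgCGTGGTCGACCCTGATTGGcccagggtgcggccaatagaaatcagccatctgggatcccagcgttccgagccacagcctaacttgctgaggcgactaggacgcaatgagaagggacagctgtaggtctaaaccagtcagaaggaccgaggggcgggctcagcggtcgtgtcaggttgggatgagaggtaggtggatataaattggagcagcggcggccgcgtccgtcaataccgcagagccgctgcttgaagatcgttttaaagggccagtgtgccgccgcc
The element was found in 22 of 33469 rat promoters of that length (0.0657%). In the ER list 7 of the 18 genes with a promoter held it, namely Calr, Canx, Creld2, Dnajc3, Hsp90b1, Hspa5 and Xbp1. A match describes the letters and is not a binding site, and the Xbp1 probe was not called against either control (-0.06 ± 0.27 and 0.13 ± 0.27).

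Enzymes of urea and glucose synthesis followed the same pattern. Of 16 probes in that list 12 were higher than medium and 1 higher than DMSO with all 3 libraries, with medians of 1.30 and 0.68, while without replicate 3 none was called against medium, at a median of 0.30. Over all probes 8.99% were higher than medium and 1.15% higher than DMSO, and without replicate 3 the share higher than medium was 1.75%. Ass1, the urea cycle enzyme argininosuccinate synthase, measured 203, 245 and 1338 CPM in the 1NP libraries, against 197, 168 and 186 CPM in medium and 269, 210.0 and 271 CPM in DMSO. Cps1, which starts the urea cycle, measured 3.78, 6.79 and 65.9 CPM in the 1NP libraries, against 2.82, 1.82 and 2.47 CPM in medium and 22.1, 14.3 and 26.2 CPM in DMSO. Fbp1, a gluconeogenic phosphatase, measured 36.8, 43.4 and 585 CPM in the 1NP libraries, against 46.3, 44.1 and 35.5 CPM in medium and 132, 113 and 136 CPM in DMSO. Replicates 1 and 2 lay above medium for Ass1 and Cps1 and within its range for Fbp1. In all 3 genes replicate 3 lay above all controls. Fbp1 gave 2.52 ± 0.67 against medium (edgeR adjusted p = 0.0168) and 0.83 ± 0.63 against DMSO (adjusted p = 0.614) with all 3 libraries, and -0.01 ± 0.34 against medium (edgeR adjusted p = 0.992) and -1.74 ± 0.35 against DMSO (adjusted p = 0.00402) without replicate 3, so its direction turned. Pck1, which commits carbon to glucose synthesis, was the exception called against both controls, at 7.29, 6.38 and 23 CPM in the 1NP libraries, against 3.5, 5.57 and 3.63 CPM in medium and 2.63, 3.58 and 2.83 CPM in DMSO. Its change was 1.62 ± 0.37 against medium (edgeR adjusted p = 0.00694) and 2.02 ± 0.38 against DMSO (adjusted p = 0.00152), and without replicate 3 only that against DMSO was called, at 1.10 ± 0.32 (edgeR adjusted p = 0.0424). Ass1 (1.72, edgeR adjusted p = 0.0883), Cps1 (3.36, adjusted p = 0.0821) and Fbp1 (2.53, adjusted p = 0.0858) lost their calls against medium without medium replicate 5. The list's count against medium was 1 without medium replicate 5, 8 without medium replicate 6 and 10 to 14 without any other of the 6 libraries except 1NP replicate 3.

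Of the NRF2 targets, 8 of 28 probes were higher than medium and 4 higher than DMSO with none lower, at medians of 0.59 and 0.45. Without replicate 3 none was called against medium, at a median of -0.01, and 2 were higher and 3 lower than DMSO. Without any 1 of the DMSO libraries 2 were higher than DMSO. Over all probes 119 to 142 were called against DMSO in those fits, in either direction, also for the lists below. Over all probes 8.99% were higher than medium and 1.15% than DMSO with all 3 libraries. Those shares without replicate 3 were 1.75% and 2.11%, with 2.29% lower than DMSO. The same shares apply to the conjugation and aldehyde lists below. Akr7a3, an aldo-keto reductase that detoxifies aldehydes, measured 46.2, 40.4 and 535 CPM in the 1NP libraries, against 44.7, 28.8 and 15.2 CPM in medium and 36.9, 25.7 and 39.4 CPM in DMSO. Gsta2, a glutathione transferase subunit, measured 14, 21.3 and 221 CPM in the 1NP libraries, against 11.9, 7.84 and 20.2 CPM in medium and 19, 21.1 and 23.9 CPM in DMSO. Both were high in replicate 3 only. Akr1b8, an aldose reductase-like enzyme, was higher than DMSO in both fits, at 248, 214 and 557 CPM in the 1NP libraries, against 286, 289 and 183 CPM in medium and 119.8, 102 and 138 CPM in DMSO for its stronger probe. Its 1NP replicates 1 and 2 lay within the range of medium, and replicate 3 above it. Among 33 probes of glutathione and conjugation enzymes 12 were higher than medium and 1 than DMSO, and none without replicate 3, when 2 were lower than DMSO. Gsta3 was the one called against both, at 2.43, 5.16 and 19 CPM in the 1NP libraries, against 1.47, 1.36 and 1.31 CPM in medium and 0.717, 1.68 and 3.21 CPM in DMSO. In the list of aldehyde, one-carbon and nitroalkane metabolism 15 of 28 were higher than medium and 4 than DMSO, and without replicate 3 0 and 2, with 3 lower than DMSO. Akr7a3 (2.90, edgeR adjusted p = 0.0711) and Gsta2 (2.50, adjusted p = 0.082) lost their calls against medium without medium replicate 5. Akr7a3 (2.46 to 2.74, edgeR adjusted p of 0.127 to 0.188) lost its call against DMSO without any 1 of the DMSO libraries. Gsta3 (1.88 to 2.20, edgeR adjusted p of 0.0808 to 0.119) lost its call against DMSO without DMSO replicate 4 or 5. Without medium replicate 5 the counts against medium were 0, 1 and 0 in these 3 lists. Without 1NP replicate 1 the NRF2 counts were 15 against medium and 10 against DMSO. Over all 12406 probes of that fit 2764 were called against medium and 420 against DMSO, in either direction.

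The promoter of Gsta2 is printed because the core of the antioxidant response element, TGACNNNGC on either strand, lies in it, shown in capitals in the reverse orientation and downstream of the start. It spans chr8:88077043-88077342, minus strand of GRCr8, from RefSeq, 250 bases before to 50 after the start.
Gsta2: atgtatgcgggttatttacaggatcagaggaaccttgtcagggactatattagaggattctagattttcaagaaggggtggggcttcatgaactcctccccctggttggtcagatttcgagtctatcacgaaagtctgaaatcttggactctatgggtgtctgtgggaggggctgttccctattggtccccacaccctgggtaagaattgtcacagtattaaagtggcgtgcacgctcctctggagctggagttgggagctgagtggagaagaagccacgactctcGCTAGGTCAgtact
That core occurs in 4038 of 33469 promoters (12.1%), and in 9 of the 22 NRF2 list genes with a promoter. Searched likewise, TGATGNAA, the core bound by ATF4, was in 3.98% of promoters and in 6 of 27 genes of the ATF4 list. GCGTG, the core of the xenobiotic response element, was in 29.7% of promoters and in 5 of 6 AhR targets.

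PPAR alpha targets of fatty acid oxidation differed by fit. Against medium 9 of 26 were higher with all 3 libraries (median 0.66) and none without replicate 3 (median 0.00). Against DMSO 1 was lower with all 3 and 17 were lower without replicate 3, at medians of 0.01 and -0.78. Over all probes 8.99% were higher than medium with all 3 and 1.75% without replicate 3, while 0.993% and 2.29% were lower than DMSO. Cyp4a2, a fatty acid omega-hydroxylase, measured 8.64, 8.14 and 125 CPM in the 1NP libraries, against 11.2, 7.16 and 6.96 CPM in medium and 42.9, 36.7 and 43 CPM in DMSO. Replicates 1 and 2 lay within the range of the medium libraries and below the DMSO libraries, and replicate 3 above both. Other Cyp4a genes are close in sequence, so the assignment of these counts to Cyp4a2 is uncertain. Its change against DMSO was 0.24 ± 0.60 with all 3 and -2.36 ± 0.31 without replicate 3 (edgeR adjusted p = 1.14e-05), the sign reversed. The change against medium was 2.61 ± 0.67 with all 3 (edgeR adjusted p = 0.0144) and 0.04 ± 0.33 without replicate 3 (adjusted p = 0.968). Cyp4a2 (2.48, edgeR adjusted p = 0.0883) lost its call against medium without medium replicate 5. The list's count against medium was 0 without medium replicate 5, 6 without medium replicate 6 and 15 without 1NP replicate 1 or 2.

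Subunits of oxidative phosphorylation were higher than medium in 17 of 29 probes with none lower, at a median of 0.42, and none was called against DMSO, at 0.11. Over all probes 8.99% were higher and 6.6% lower than medium, and 1.75% and 0.614% without replicate 3. Against DMSO 1.15% of all probes were higher and 0.993% lower. The list of oxidative phosphorylation lay above medium in each library, at 0.25, 0.24 and 0.66 log2 units in 1NP replicates 1, 2 and 3, and DMSO lay at 0.19 to 0.27. Without replicate 3, 3 of 29 were called, against 2 without medium replicate 5 and 11 without medium replicate 4. Ndufa9, a complex I subunit, measured 16.2, 21 and 16.1 CPM in the 1NP libraries, against 10.1, 5.11 and 8.12 CPM in medium and 12.4, 10.4 and 14 CPM in DMSO, with a change of 1.26 ± 0.21 against medium. Ndufv2, a flavoprotein subunit of complex I, measured 41, 51.3 and 76 CPM in the 1NP libraries, against 26.5, 22.5 and 28.3 CPM in medium and 43.3, 46.7 and 51.1 CPM in DMSO. In both all 1NP libraries were above medium, and for Ndufv2 they overlapped with DMSO.

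Acute-phase genes were lower than DMSO in 13 of 23 probes with 1 higher, at a median of -0.94. Against medium 3 were higher and 4 lower, at -0.06. Without replicate 3 the counts were 12 lower and 1 higher against DMSO and 2 lower against medium. Over all probes 1.15% were higher and 0.993% lower than DMSO, and 8.99% and 6.6% against medium. Those shares without replicate 3 were 2.11% and 2.29% against DMSO, and 1.75% and 0.614% against medium. The controls differed here, and the median of the acute phase list was -0.22, 0.05 and -0.20 in the 1NP libraries and 0.57 to 1.09 in DMSO, relative to medium. Fga, a fibrinogen chain, measured 1644, 2203 and 2566 CPM in the 1NP libraries, against 1632, 1742 and 2447 CPM in medium and 6401, 5671 and 6339 CPM in DMSO. 1NP and medium overlapped, and DMSO was far above both. Itih3, a hyaluronan-binding inhibitor chain, lay below both controls, at 104, 118 and 79.7 CPM in the 1NP libraries, against 148, 189.9 and 154 CPM in medium and 345, 277 and 357 CPM in DMSO, and was called against both (-0.65 ± 0.20 and -1.73 ± 0.20), though not against medium without replicate 3 (edgeR adjusted p = 0.201). Hamp, the iron hormone hepcidin, measured 5.4, 8.69 and 148 CPM in the 1NP libraries, against 11.4, 6.25 and 2.18 CPM in medium and 18.3, 17.3 and 21.3 CPM in DMSO, high in replicate 3 alone. Hamp (3.09, edgeR adjusted p = 0.0858) lost its call against medium without medium replicate 5. Itih3 (-0.64 to -0.55, edgeR adjusted p of 0.0509 to 0.143) lost its call against medium without medium replicate 5 or 6. The counts against medium were 0 higher and 1 lower without medium replicate 5, and 1 and 1 without medium replicate 6.

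Complement and secreted carriers are set here beside the shares called over all probes. Among 27 complement probes 5 were higher and 2 lower than medium, at a median of 0.22, and 4 lower and none higher than DMSO, at -0.25. Over all probes the shares were 8.99% higher and 6.6% lower than medium, and 1.15% and 0.993% against DMSO. Without replicate 3 the complement counts were 1 higher and 1 lower than medium, and 8 lower than DMSO. Over all probes those shares were 1.75%, 0.614% and 2.29%. Besides C3, C4bpa, a regulator of complement, was lower than DMSO, at 117, 121 and 146 CPM in the 1NP libraries, against 153, 140.1 and 116 CPM in medium and 383, 347 and 372 CPM in DMSO. Of 25 probes for hepatocyte identity and secreted carriers 4 were lower and 2 higher than medium, at a median of 0.29, and 9 lower than DMSO, at -0.26. Without replicate 3 there were 1 lower than medium and 14 lower than DMSO. The summed hepatocyte markers were lower in the 1NP libraries too, as given above, and their part in these counts was not tested. Alb, Ttr, Tf and Apoa1 carried that sum, and of the 9 markers Apoa1 alone lay below medium in all 3 1NP libraries. In replicate 3, Tat with 103 CPM, Cps1 with 65.9 CPM and Hnf4a with 455 CPM lay above all 6 controls. Without medium replicate 5 no probe of the complement or carrier lists was called against medium. Alb, albumin, measured 1871, 2021 and 1422 CPM in the 1NP libraries, against 1971, 1921 and 2615 CPM in medium and 3609, 3129.8 and 3662 CPM in DMSO, and Kng1, the kininogen gene, 4041, 4440.2 and 4015 CPM in the 1NP libraries, against 4231, 3875 and 5723 CPM in medium and 9278, 8964 and 8759 CPM in DMSO on its stronger probe. In both 1NP overlapped with medium and DMSO stood higher. Of 20 cholesterol synthesis probes 1 was lower than medium, at a median of -0.16, and 5 were lower than DMSO, at -0.70, with none higher. None was called against medium and 5 were lower than DMSO without replicate 3, and 2 or 3 were lower than DMSO without 1 DMSO library. Egr1 and Cxcl10, an immediate early factor and a chemokine, measured 60.6, 71.7 and 34.1 CPM and 9.04, 6.51 and 1.29 CPM in 1NP, 77, 67.7 and 65.6 CPM and 3.84, 6.59 and 4.64 CPM in medium, and 271, 239 and 261 CPM and 32.1, 18.5 and 36.1 CPM in DMSO. Both were called lower than DMSO, with 1NP values that reached into or below the medium range.

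Actin cytoskeleton and SRF targets lay low in replicate 3 and near medium in the others. The median of the list actin cytoskeleton and SRF targets, relative to medium, was 0.04, 0.16 and -2.01 in 1NP replicates 1, 2 and 3 and -0.79 to -0.73 in DMSO. With all 3 libraries 1 of 25 probes was higher than medium and 1 than DMSO, and without replicate 3 the counts were 1 and 15, at medians of 0.12 and 1.08. Over all probes 8.99% were higher than medium and 1.15% than DMSO with all 3, and 1.75% and 2.11% without replicate 3. The summed stellate markers, nearly all Reln, were also lowest in replicate 3, at 346, 359 and 258 CPM in the 1NP libraries, against 382 to 396 CPM in medium and 328 to 369.9 CPM in DMSO. Des, Dcn, Pdgfrb and Col1a1 were at 0 in all 9 libraries, and the part of the stellate markers in the actin counts was not tested. Tagln, the smooth muscle protein transgelin, measured 828, 790.1 and 34.1 CPM in the 1NP libraries, against 573, 697 and 788 CPM in medium and 219, 269 and 221 CPM in DMSO. Nexn, an actin filament binding protein, measured 28.7, 29.6 and 1.41 CPM in the 1NP libraries, against 13.8, 15.9 and 15.5 CPM in medium and 9.92, 10.3 and 8.35 CPM in DMSO. Thbs1, the matrix protein thrombospondin 1, measured 1898, 2285 and 115 CPM in the 1NP libraries, against 1341, 1214 and 1210.0 CPM in medium and 1213, 1336 and 1379 CPM in DMSO. In replicates 1 and 2 Nexn and Thbs1 lay above all 6 controls and in replicate 3 below all 6. Without replicate 3 Thbs1 rose by 0.79 ± 0.15 against medium (edgeR adjusted p = 0.00559) and 0.60 ± 0.15 against DMSO (adjusted p = 0.0137), while with it neither comparison was called (0.23 ± 0.47 and 0.07 ± 0.47).

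Of the 22 probes called higher against both controls without replicate 3, replicate 3 lay above all 6 controls in 8, below all 6 in 6 and within their range in 8. Of the 15 called lower, it lay below all 6 in 14 and above in 1. The share of all probes with replicate 3 beyond all 6 controls was not counted, so these counts have no base rate beside them. Replicate 3 lay more than 1 log2 unit from the medium mean in 23.4% of 7559 probes. Tuba1a, an alpha tubulin, measured 325, 334 and 38.6 CPM in the 1NP libraries, against 215, 152 and 171 CPM in medium and 149, 168 and 139 CPM in DMSO, and Klf6, an injury-induced transcription factor, 70.7, 96.9 and 38.7 CPM in the 1NP libraries, against 33.5, 31.5 and 65.4 CPM in medium and 45.9, 45.6 and 45.6 CPM in DMSO. Both were higher than all controls in replicates 1 and 2 and not in replicate 3. Immediate early genes of the ERK pathway were mixed, with 2 higher and 6 lower of 26 against medium and 1 and 2 against DMSO, at medians of -0.49 and -0.34. Over all probes 8.99% were higher and 6.6% lower than medium, and 1.15% and 0.993% against DMSO. Those shares without replicate 3 were 1.75% and 0.614% against medium, and 2.11% and 2.29% against DMSO. Jun, a subunit of AP-1, rose against medium only, at 14.3, 14.4 and 10.3 CPM in the 1NP libraries, against 6.1, 5.0 and 6.82 CPM in medium and 7.17, 10.2 and 11.4 CPM in DMSO, and did so in both fits. Without medium replicate 5 the ERK counts against medium were 1 and 0, and without 1NP replicate 3 they were 2 and 0 against medium and 3 and 2 against DMSO. Of 32 probes in the ATF4 and amino acid response list 1 was higher and 6 lower than medium, and 3 higher than DMSO, at medians of -0.27 and 0.25. Neither direction had a call against medium without medium replicate 5. Without 1NP replicate 3 the counts of that list were 0 higher and 2 lower than medium and 6 higher than DMSO. Without DMSO replicates 4, 5 and 6 in turn, 0, 2 and 1 were higher than DMSO. Gdf15, a stress-induced cytokine, measured 101, 94.5 and 30.6 CPM in the 1NP libraries, against 127, 184 and 163 CPM in medium and 73.4, 81.2 and 70.5 CPM in DMSO, lower than medium in all 3 wells. Klf6 (0.37 to 0.69, edgeR adjusted p of 0.0606 to 0.277) lost its call against medium without 1NP replicate 1 or 2 or medium replicate 4 or 5. Jun (1.05, edgeR adjusted p = 0.0617) and Gdf15 (-0.93, adjusted p = 0.0763) lost their calls against medium without medium replicate 5.

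**Figure D3:**
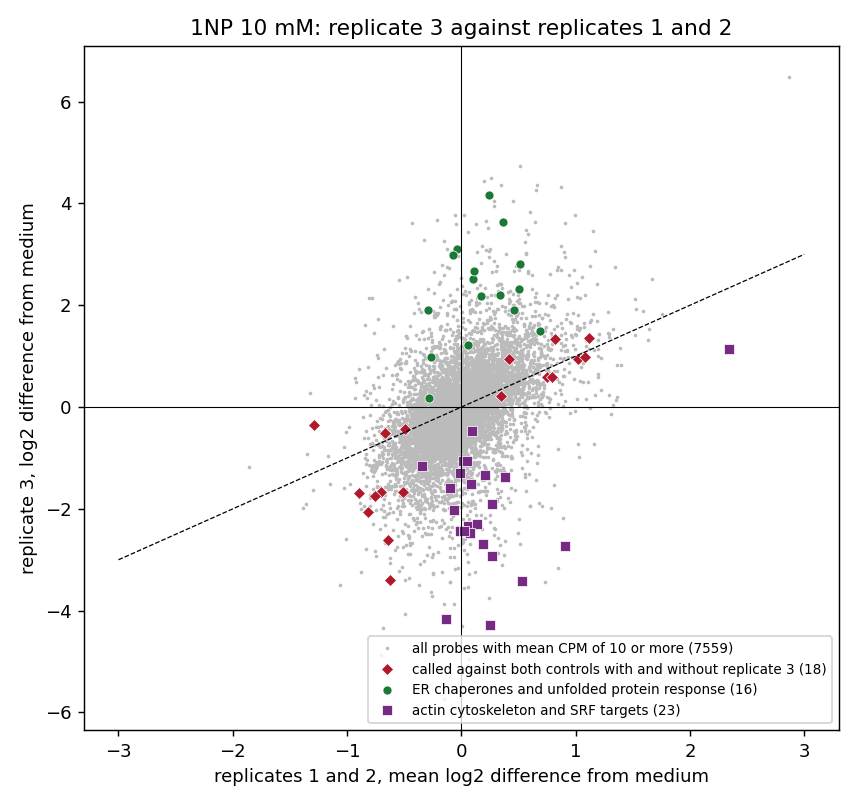
Log2 difference from the medium mean, on log2(CPM + 1), in replicate 3 of 1NP 10 mM (vertical axis) against the mean of replicates 1 and 2 (horizontal axis), for 7559 probes with a mean of at least 10 CPM (grey), with the core probes (red), ER list (green) and actin list (purple) marked and a dashed line of equality. Of the core, 18 probes are plotted, all with the same sign on both axes. In replicate 3, 10 of them lie farther from 0 and 8 nearer, and 8 lie within 0.5 log2 units of equality. The ER list lies near 0 across and high in replicate 3, and the actin list lies near 0 across and low.

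**Figure D4:**
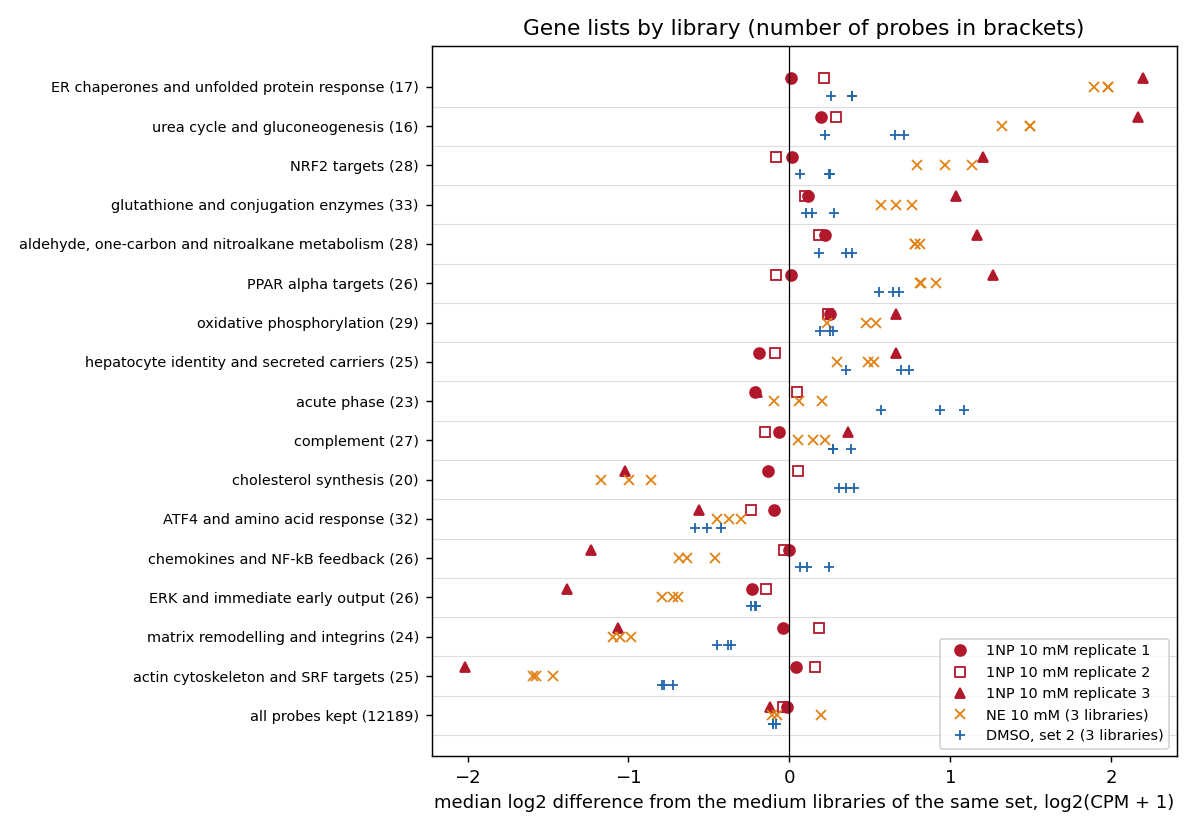
Median log2 difference from the medium libraries of the same set, on log2(CPM + 1), for 16 gene lists and all probes kept (rows, number of probes in brackets), in the 3 libraries of 1NP 10 mM (red, a symbol per replicate), NE 10 mM (orange crosses) and DMSO (blue plus signs). Replicate 3 lies beside NE in most rows, and replicates 1 and 2 lie near 0.

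To see which other wells replicate 3 was like, the log2 differences from medium were correlated across the 7559 probes, as a description only, since probes are not independent and wells of a set share the mean of their medium. Replicates 1 and 2 had a Pearson r of 0.780 with each other, and of 0.426 and 0.477 with replicate 3. Replicate 3 had r of 0.881, 0.710 and 0.897 with NE at 10 mM replicates 1 to 3, which use the medium of the other set. For replicate 1 those values were 0.375, 0.129 and 0.259, and for replicate 2 they were 0.422, 0.183 and 0.310. Within the 1NP series, replicate 3 at 10 mM had r of 0.753 with replicate 3 at 3 mM and 0.754 with replicate 3 at 1 mM. With 3 mM replicates 1 and 2 it had r of 0.584 and 0.542, and with 1 mM replicates 1 and 2 -0.055 and 0.431. Replicates 1 and 2 at 10 mM had r of 0.676 and 0.715 with 1 mM replicate 3. Among wells of the other set, replicate 3 at 10 mM had r of 0.716, 0.577 and 0.206 with NE at 3 mM, and 0.601, 0.562 and 0.235 with benzo[a]pyrene (BaP) at 50 µM. The 1NP wells of replicate 3 at 3 and 1 mM, also in column 3, had 6.44% and 5.37% of probes over 1 log2 unit from medium. Replicates 1 and 2 had 1.12% and 1.11% at 3 mM, and 0.675% and 1.12% at 1 mM. The column 3 wells at 0.003 to 0.3 mM had 0.225% to 2.25%. NE at 10 mM had 13.1% to 16.9%, and its replicate 2 stood apart, with counts on 21627 of 22253 probes, against 13477 and 13515 in replicates 1 and 3. NM at 10 mM had 0.437%, 0.556% and 26.7%, but its replicate 3, also a well apart, had r of -0.176 with 1NP replicate 3.

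**Figure D5:**
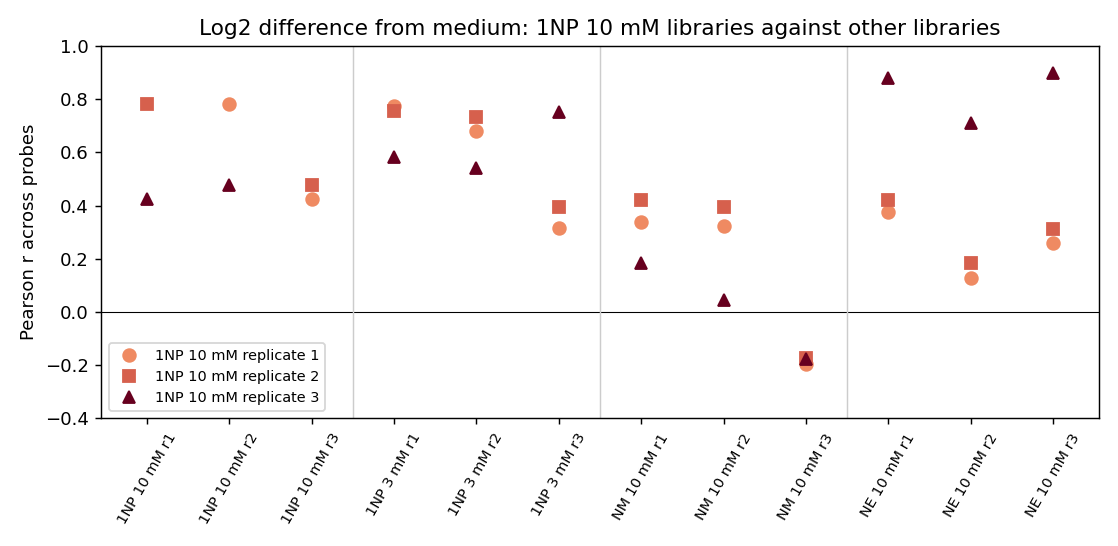
Pearson r across 7559 probes (vertical axis) of the log2 difference from medium between each 1NP 10 mM library (a symbol per replicate) and the libraries named on the horizontal axis, 1NP at 10 and 3 mM, NM at 10 mM and NE at 10 mM. Replicate 3 reaches 0.710 to 0.897 with the NE libraries, and replicates 1 and 2 stay at 0.129 to 0.422.

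The 3 nitroalkanes were then compared at the matched concentration of 10 mM, as the difference between the effect of 1NP against its medium and the effect of NM or NE against the medium of their set, 2 pairs in all. With all libraries, 0 of 12268 probes differed between 1NP and NM (0%) in edgeR's quasi-likelihood test, with 2156 at an unadjusted p under 0.05 and 26 called by DESeq2. Without 1NP replicate 3, 0 of 12589 differed (0%) in edgeR, with 1385 at an unadjusted p under 0.05, and 3 of 12655 differed without 1NP replicate 1. Between 1NP and NE 3 differed (0.0245%), and without 1NP replicate 3 710 were higher (5.64%) and 510 lower (4.05%) in 1NP. With NE replicate 2 left out as well, 726 were higher (5.9%) and 541 lower (4.4%), and with that library alone left out 0 were called, with 990 at an unadjusted p under 0.05 in edgeR. Those p-values were adjusted within each pair. Adjusted over both pairs together, 0 probes differed from NM and 0 from NE with all libraries, at lowest edgeR adjusted p-values of 0.164 and 0.0842. Without 1NP replicate 3, the joint adjustment called 47 probes against NM and 933 against NE. Adjusted within the NM pair, 0 were called in that fit, so the 47 depend on pooling with the p-values of the NE pair. Intervals are for 1 probe and not adjusted. Orm1 measured 465, 498 and 276 CPM in 1NP, against 1013, 959.6 and 848 CPM in NM. For Orm1 the effect of 1NP was -1.07 ± 0.22 and that of NM -0.42 ± 0.22, a difference of -0.64 (95% interval -1.24 to -0.04). For Uox the difference from NM was -1.38 (95% interval -2.10 to -0.65) and for Dusp1 1.21 (95% interval 0.69 to 1.73), and none of the 3 passed (edgeR adjusted p = 0.283, 0.202 and 0.202). These misses do not show that 1NP and NM act alike.

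The 3 probes that separated 1NP from NE with all libraries were Mmp2, a matrix metalloproteinase, Prom1, a membrane glycoprotein of progenitor cells, and Mybl1, a transcription factor. Mmp2 measured 46.6, 38.3 and 19 CPM in 1NP, against 2.72, 4.93 and 3.44 CPM in NE, and the difference of effects was 2.75 (95% interval 1.84 to 3.66), edgeR adjusted p = 0.0421. For Prom1 it was 1.77 (95% interval 1.17 to 2.38) and for Mybl1 1.62 (95% interval 1.08 to 2.17). All 3 calls ended with DESeq2 size factors. With any 1 of the 12 libraries other than 1NP replicate 3 left out, 0 to 2 probes were called. Without 1NP replicate 3 Mmp2, Prom1 and Mybl1 were all called (edgeR adjusted p = 4.04e-05, 4.23e-05 and 7.27e-05). Further genes of the lists above were called between 1NP and NE in the fit without 1NP replicate 3. That replicate was the 1NP well most like NE, so leaving it out makes the 1NP group less like NE. The calls without it, here and in the counts above, describe 1NP replicates 1 and 2 and are no separate test of the compounds. Hsp90b1 measured 5695, 4922 and 5533 CPM in NE, and the difference of 1NP from NE was -2.93 (95% interval -3.42 to -2.45), edgeR adjusted p = 9.86e-08, beside -0.91 (95% interval -2.47 to 0.65) with all 3. Ptgr1 measured 323, 343 and 325 CPM in NE, all near the value of 1NP replicate 3, and differed by -1.34 (95% interval -1.94 to -0.74) without that replicate. Apoe was lower in NE, at 1460.2, 1239.9 and 1359 CPM, with a difference of 1.53 (95% interval 1.11 to 1.96) without replicate 3.

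By group, the counts without replicate 3 likewise describe 1NP replicates 1 and 2 alone. In that fit 11 of 17 ER chaperone probes were lower in 1NP than in NE. Their median difference was -1.74, beside -0.02 over all probes. Over all probes 5.64% were higher and 4.05% lower. Of 28 NRF2 probes 11 were lower, at a median of -0.66, and of 26 PPAR alpha probes 15, at -0.88. In the actin and SRF list 23 of 25 were higher in 1NP than in NE, at a median of 1.87, and in cholesterol synthesis 10 of 20 were higher and 1 lower, at 1.02. With NE replicate 2 left out too, 13 ER, 11 NRF2 and 15 PPAR alpha probes were lower, and 22 actin and 9 cholesterol probes higher. Gadd45g was higher in 1NP than in NE by this fit, at 1.54 (95% interval 0.61 to 2.46), edgeR adjusted p = 0.0418, and lost its call with NE replicate 2 left out too (1.53, adjusted p = 0.067). For Orm1 and Uox the differences between 1NP and NE were 0.47 (95% interval -0.08 to 1.02) and -0.22 (95% interval -0.81 to 0.36), and did not pass. NM and NE were given in the other set, so compound and set are compared only through each set's own medium. Whether replicate 3 followed from the treatment or the well was not tested.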

How the data were processed

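Gene expression in primary rat hepatocytes was measured by TempO-Seq. The authors deposited whole-number counts per probe, not normalized, for 105 libraries and 22253 probes. The submitters' processing notes name FastQC, Bowtie, R 3.5.3 and DESeq2 1.28.1, without settings, and a genome build is not given in the sources used here. The panel is titled a human one in the labels, while the symbols are those of rat genes, and 15980 of 20946 symbols were found in the rat gene table. Groups, concentrations and replicate numbers were taken from the sample labels.

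From the deposited counts, edgeR 4.0.16 (R 4.3.3, limma 3.58.1) fitted the 33 libraries of the second set, 11 groups, with TMM scaling, its filter on low counts (minimum 10, total 15) and robust quasi-likelihood tests. Benjamini-Hochberg adjustment was over all probes kept, with calls at an adjusted p under 0.05. The nitroalkanes were compared in a fit of 21 libraries. Standard errors are the log2 fold change over the root of the F statistic, and 95% intervals use the normal quantile. CPM is a count over its library total, and differences per library use log2(CPM + 1). The scripts were tested on simulated data with known changes. Motifs were searched in RefSeq promoters of the assembly GRCr8. Figures were drawn with matplotlib 3.10.9 in Python 3.11.15.

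Alternatives were DESeq2 1.42.0 (its size factors in edgeR, and its Wald test), no filter on low counts, other sets of libraries, and each library left out in turn. List counts and leading genes without 1NP replicate 3, the fit of 8 libraries, the fits leaving out NM replicate 3 or NE replicate 2 as well, and the ER stress element were added after seeing the data. Named genes were those called against both controls with all 1NP libraries beyond all controls and a mean of at least 10 CPM, ranked by the smaller log2 fold change, the leading ones per control, the 4 marker genes, the leading and most abundant genes of each list, and the core; others are said to be chosen after their values were seen. The members and lists were chosen with earlier results of these data known. Library totals ran from 5475419 to 11122665 counts, and no interval was given for single counts, which cover counting error only.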

Additional observations from a re-analysis of the deposited data

How the results depend on the processing

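The count of probes called for 1NP at 10 mM against medium kept within 1.5 times with DESeq2 size factors (1873), DESeq2's Wald test (2321), no filter on low counts (2276) and 30 libraries without WY-14643 (1614). It was 0 in the fit of the 9 libraries compared, with 2425 at an unadjusted p under 0.05 in edgeR, and 72 in the added fit of 8 libraries. Against DMSO it was 410 by the Wald test, 640 with no filter, 34 with 9 libraries and 518 with 8. Against both controls it was 138, 308, 0 and 15 in that order, and the 0 comes from the empty medium comparison. Against 0.003 mM it was 0 with 6 libraries, with 1947 at an unadjusted p under 0.05 and 2318 called by the Wald test of 33 libraries. For 1NP minus NE the count was 0 with DESeq2 size factors (1255 at an unadjusted p under 0.05), 97 by the Wald test, 485 with no filter, 5 with DMSO as control and, in an added fit without both 1NP replicate 3 and NE replicate 2, 1267. For 1NP minus NM it was 26 by the Wald test and 727 with no filter.

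With 1 library left out, the counts ran from 90 to 2764 against medium, 119 to 544 against DMSO, 20 to 246 against both, 173 to 2735 against 0.003 mM, 0 to 3 for 1NP minus NM and 0 to 1220 for 1NP minus NE. The log2 fold change against medium ran from -0.016 to 2.29 for Hyou1 and from -0.011 to 3.03 for Fbp1, and that against DMSO from -1.74 to 1.34 for Fbp1 and from -2.36 to 0.74 for Cyp4a2. In the fit of 8 libraries, Hyou1 (-0.031) and Fbp1 (-0.021) turned sign against medium. Against DMSO Hsp90b1 (-0.60), Hspa5 (-1.30), Calr (-0.90), Cps1 (-2.04), Fbp1 (-1.73), Cyp4a2 (-2.35) and Hsd17b13 (-1.11) did so. Of the other gene values, 914 kept their side of the threshold and direction with 1 library left out, 186 lost and 28 gained a call. A further 44 changed sign without a call in either fit. Where no construction is named, the cause was not tested.

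With the replicate block the count against 0.003 mM was 2218. Deviations of same-numbered wells at 10 and 0.003 mM correlated at 0.145, 0.028 and 0.116, and those of wells with different numbers at -0.143 to 0.116. These few values do not settle whether the numbers, which follow the plate columns, pair the wells. The main fit did not pair them, and the other comparisons share no replicate numbers. A count of 3 stood for 0.335 to 0.435 CPM, and differences between groups under that level were not detectable at this depth.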
